A study of Mus musculus with 10 samples.

Results

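The TNF ligand and receptor superfamily was followed here in mouse intestinal organoids, which are small epithelial structures grown in culture from the intestine. Its genes were taken by name from the array's probe-to-gene table: every symbol that begins with Tnfsf or Tnfrsf and a digit, with Tnf, Lta, Ltb, Ltbr, Fas, Fasl, Cd40, Cd27 and Eda2r. This gave 37 genes, each with 1 probe set, out of 19505 genes on the array. 13 are ligands and 24 are receptors. Cd27 was not among the symbols and was not analysed here, nor were the ligand genes Tnfsf12 and Tnfsf13.

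The study asked whether loss of IκBα, the inhibitor of NF-kB encoded by Nfkbia, gives intestinal stem cells a fetal character. RNA of 5 organoid samples labelled knockout (KO) and of 5 labelled wild type (WT) was hybridised to 1 array each, and all 10 carry the mark P6, whose meaning is not spelled out in the labels. Strain, sex, treatment, the part of Nfkbia that was removed, and whether samples came from separate animals or cultures are not stated in the labels. The p-values thus refer to how far these 10 samples spread, and that spread may be technical.

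Members of this family are signals between cells. The ligands are mostly trimeric proteins held in the membrane and often shed from it, and each binds receptors with cysteine-rich outer domains. Some receptors carry a death domain that can start caspase activation, most others recruit TRAF adaptors that switch on NF-kB and MAP kinases, and a few are decoys that bind ligand and pass on no signal. In the gut, TNF from immune cells and epithelium drives inflammation and epithelial cell death, and Tnf is a classical target gene of NF-kB.

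Nfkbia was lower in all 5 KO arrays, at 4.72 to 5.34, than in all 5 WT arrays, at 8.95 to 9.85 (log2 level as deposited). Array medians over gene probe sets lay between 6.53 and 6.67, and Pearson's r was 0.965 to 0.987 among KO arrays, 0.963 to 0.990 among WT arrays and 0.885 to 0.929 between the groups (over probe sets of an array, none of them a replicate). Transcripts of the Y chromosome were lower in KO as well, Eif2s3y by a change of -5.20, Uty by -4.47 and Kdm5d by -2.42, in all 5 KO arrays against all 5 WT arrays. In KO they stood at 3.74 to 4.27, 3.25 to 3.47 and 3.46 to 4.14, under the lowest array median of the negative control probes, 4.30. This difference splits the arrays exactly as the knockout does. Its part in the values below was not tested and cannot be told apart from that of the knockout. Control RNAs also shifted: 63 ERCC spike-ins had a median change of -0.12 (range -0.55 to 0.22), and 8 bacterial and phage controls one of -0.52 and of at most 0.85 in size. The level of a probe set depends on its probes, so levels are compared between arrays and not between genes.

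Markers of epithelium and of other cell types were read first. Of 7 epithelial markers 3 rose, 1 fell and 3 did not pass. That is 57.1% passed in either direction, beside 26.7% of all probe sets tested. The share was 23.1% for leukocyte markers and 11.1% for stromal markers. The mean of the 7 log2 levels was 11.34 to 11.65 over KO arrays and 11.05 to 11.36 over WT arrays. Of 13 measured leukocyte markers, Itgam and Csf1r rose by 1.56 and 1.53, Lyz2, a lysozyme also made by Paneth cells, changed by -4.18, and 10 did not pass, Ptprc and Cd3e among them. The mean leukocyte level was 5.08 to 5.40 in KO and 5.22 to 5.33 in WT, beside medians of 4.30 to 5.10 for the negative control probes. This mean includes Lyz2, whose fall lowers it in KO. A mean without Lyz2 was not taken, so the overlap does not show that the other leukocyte markers stayed level. Of 9 stromal markers 1 fell, Lum by a change of -0.39. Lum stood at 3.85 to 4.05 in KO and 4.15 to 4.49 in WT, all under the highest negative control median of 5.10. It did not pass when tested against a 1.2-fold change (limma's treat, adjusted p = 0.413). Of 5 endothelial markers none passed (limma, adjusted p 0.0803 or more, with 1 at an unadjusted p under 0.05). Mean levels were 5.31 to 5.61 (KO) and 5.48 to 5.76 (WT) for stromal markers, and 4.29 to 4.65 and 4.48 to 4.62 for endothelial markers. The part of Itgam and Csf1r, which rose, in the values below was not tested. In RNA from whole cultures, fewer cells of a type and less RNA per cell cannot be told apart.

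Changes are KO minus WT on the log2 scale with their standard errors (SE), and a gene passed at an adjusted p under 0.05 (limma, adjusted over all 19572 probe sets with 1 gene symbol). Of the 37 genes 12 rose, 5 fell and 20 did not pass. That is 32.4% higher and 13.5% lower, beside 15.0% higher and 11.7% lower over all probe sets tested, and 45.9% passed in either direction beside 26.7%. For 14 genes, or 37.8%, the KO and WT values did not overlap, beside 21.4% of all probe sets. The median change was 0.12 against -0.01 over all probe sets. Among those that passed, 10 rose and 1 fell by over 2-fold. Among the 24 receptors 9 rose and 2 fell. Of the 13 ligands 3 rose and 3 fell.

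**Figure D1:**
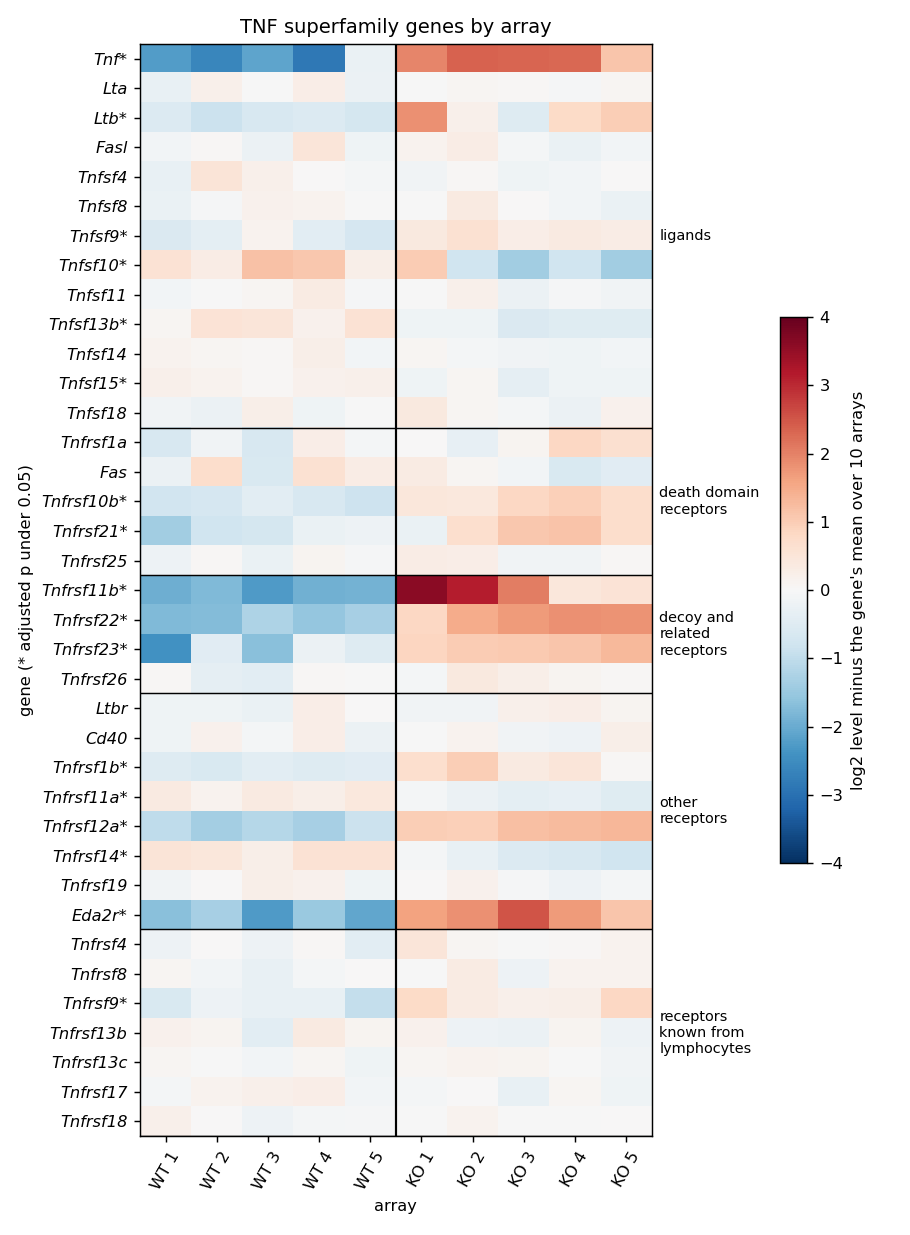
Log2 level of each of the 37 genes in each array minus the gene's own mean over the 10 arrays, with WT arrays on the left and KO arrays on the right and genes grouped by role; red is above and blue below the mean, and an asterisk marks the 17 genes that passed. The Tnf, Tnfrsf11b, Tnfrsf22, Tnfrsf23, Tnfrsf12a and Eda2r rows change colour between the groups, while the receptors known from lymphocytes change less.

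The promoters of 3 genes that rose are shown because they carry, or in the case of Tnf do not carry in this window, the letters of an NF-kB site. Each is the RefSeq window (GRCm38.p6) of 250 bases before an annotated start, 5′ to 3′ on the gene's strand. Capitals mark matches on either strand to the NF-kB consensus, to TGANTCA, the site of AP-1 factors, or to TATAAA. Capitals in Ltb mark an NF-kB match, those in Tnf a TATAAA, and those in Tnfrsf9 an NF-kB match followed by TGAGTCA.

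Ltb, chr17:35194257-35194506, plus strand: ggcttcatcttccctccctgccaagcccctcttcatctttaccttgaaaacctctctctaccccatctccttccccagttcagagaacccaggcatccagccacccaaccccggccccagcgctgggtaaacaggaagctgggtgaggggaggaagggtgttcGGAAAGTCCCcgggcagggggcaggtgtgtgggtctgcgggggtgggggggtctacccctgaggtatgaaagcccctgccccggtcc
Tnf, chr17:35202008-35202257, minus strand: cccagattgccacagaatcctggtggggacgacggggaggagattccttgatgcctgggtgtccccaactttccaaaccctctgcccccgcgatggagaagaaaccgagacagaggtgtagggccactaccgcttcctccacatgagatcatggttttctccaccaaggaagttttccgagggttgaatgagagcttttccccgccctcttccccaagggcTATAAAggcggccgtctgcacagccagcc
Tnfrsf9, chr4:150927749-150927998, plus strand: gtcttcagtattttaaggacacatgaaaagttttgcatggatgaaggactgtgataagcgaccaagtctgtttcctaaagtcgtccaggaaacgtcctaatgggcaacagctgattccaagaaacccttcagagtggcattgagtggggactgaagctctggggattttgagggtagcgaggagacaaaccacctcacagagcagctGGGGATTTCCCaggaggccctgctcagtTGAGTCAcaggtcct

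RefSeq windows, searched from 250 bases before to 50 after the start, were at hand for 30 of the 37 genes, 34 windows in all since some genes have several starts. The NF-kB consensus was in 4 of these 34 windows, from Ltb, Tnfrsf9, Tnfrsf8 and Tnfrsf25, and in 8.46% of all 32851 windows. Tnfrsf8 and Tnfrsf25 did not pass. Of 13 genes that passed and have a window, 2 held it. In Ltb the match begins 87 bases before the start and reads GGGACTTTCC on the other strand. In the shown window of Tnfrsf9, which has another start with no match, GGGGATTTCC begins 43 bases before the start and overlaps a second match shifted by 1 base. TGANTCA was in 6 of the 34 windows, from Fas, Tnfrsf8, Tnfrsf9, Tnfsf13b and Tnfsf14 (7.81% of all windows). No TGANTCA match overlapped an NF-kB match in these windows. TATAAA was in 7 of the 34 windows, from 7 genes (13.6% of all windows), and in Tnf it begins 29 bases before the start. A match is a description of letters and not of binding.

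Tnf, the inflammatory cytokine after which the family is named, rose in KO. In replicates 1 to 5, in which order all single values below are given, its log2 level was 9.22, 9.62, 9.61, 9.57 and 8.39 in KO and 5.05, 4.67, 5.16, 4.40 and 6.99 in WT. WT replicate 5 stood highest of the WT arrays and KO replicate 5 lowest of the KO arrays, and the groups did not overlap. KO arrays averaged 9.28 ± 0.53 (SD, n = 5) and WT arrays 5.25 ± 1.02 (SD, n = 5), a change of 4.03 ± 0.44 (SE) or 16.3-fold (limma, adjusted p = 2.70e-05). WT replicates 1, 2 and 4 lay under the highest negative control median, 5.10.

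Ltb and Lta lie next to Tnf on chromosome 17 and encode lymphotoxin, Ltb being the part that anchors it in the membrane. Ltb stood at 8.50, 6.89, 6.17, 7.46 and 7.68 in KO and at 6.12, 5.81, 6.03, 6.15 and 5.99 in WT. All KO values were above all WT values, though KO replicate 3 only just, at 6.17 beside 6.15. The change was 1.32 ± 0.34 (SE) or 2.50-fold (limma, adjusted p = 0.0126). Lta, the third gene of the cluster, ranged from 7.34 to 7.47 in KO and from 7.10 to 7.66 in WT, with a change of 0.04 (95% interval -0.23 to 0.30). The neighbours Ltb and Tnf thus rose and Lta did not pass.

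Tnfsf9, the ligand of the costimulatory receptor Tnfrsf9, also rose. Its level was 6.49, 6.71, 6.36, 6.44 and 6.40 in KO and 5.53, 5.69, 6.24, 5.69 and 5.42 in WT. The groups did not overlap, WT replicate 3 coming closest, and the change was 0.77 ± 0.15 (SE) (limma, adjusted p = 0.00242).

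The ligands that fell were Tnfsf10, Tnfsf13b and Tnfsf15. Tnfsf10, known as TRAIL, triggers death through Tnfrsf10b. It stood at 7.98, 6.17, 5.57, 6.17 and 5.57 in KO and at 7.56, 7.25, 8.13, 8.03 and 7.21 in WT. KO replicate 1 lay among the WT arrays and the other KO arrays below them all. The change was -1.35 ± 0.41 (SE) (limma, adjusted p = 0.0307). Without KO replicate 1 it was -1.77 (limma, adjusted p = 0.000220), while when 1 of the KO arrays 2 to 5, or of the WT arrays 1, 3 and 4, was left out the call was lost (limma, adjusted p = 0.0525 to 0.0781), as it was when tested against a 1.2-fold change (limma's treat, adjusted p = 0.0744).

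Tnfsf13b, the B cell survival factor BAFF, was at 6.30, 6.31, 5.89, 5.98 and 5.99 in KO and at 6.56, 7.01, 6.96, 6.63 and 7.05 in WT. Every KO value lay below every WT value, and the change was -0.75 ± 0.14 (SE) (limma, adjusted p = 0.00154). Tnfsf15, the ligand of Tnfrsf25, was at 6.37, 6.61, 6.16, 6.35 and 6.35 in KO and at 6.74, 6.68, 6.58, 6.69 and 6.73 in WT. The groups overlapped through KO replicate 2 and WT replicate 3. Its change of -0.32 ± 0.10 (SE) just passed (limma, adjusted p = 0.0358), and it did not pass when 1 of the KO arrays 1, 3, 4 and 5, or of the WT arrays 1, 2, 4 and 5, was left out (limma, adjusted p = 0.0569 to 0.0806), nor against a 1.2-fold change (limma's treat, adjusted p = 0.878). With the replicate numbers as a block the adjusted p was 0.0657 (limma). The changes of Tnfsf9, Tnfsf13b, Tnfsf15 and Tnfrsf11a are smaller in size than that of the most shifted control RNA. Outside the members, so are those of Lum above and of Edaradd, Birc3, Map3k14, Adam17, Traf2, Spata2 and Relb below.

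The other ligands changed by -0.17 to 0.12 and did not pass. They were Tnfsf14 (-0.17), which binds Ltbr and Tnfrsf14, Tnfsf4 (-0.14), Tnfsf11 (-0.10), the ligand that induces antigen-sampling M cells in the gut, Fasl (-0.01), Tnfsf8 (0.00), Lta and Tnfsf18 (0.12). For Tnfsf4, Tnfsf8 and Tnfsf18 the means of both groups lay under the highest negative control median. The 95% interval of Tnfsf11 was -0.36 to 0.15 and that of Fasl -0.35 to 0.34.

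**Figure D2:**
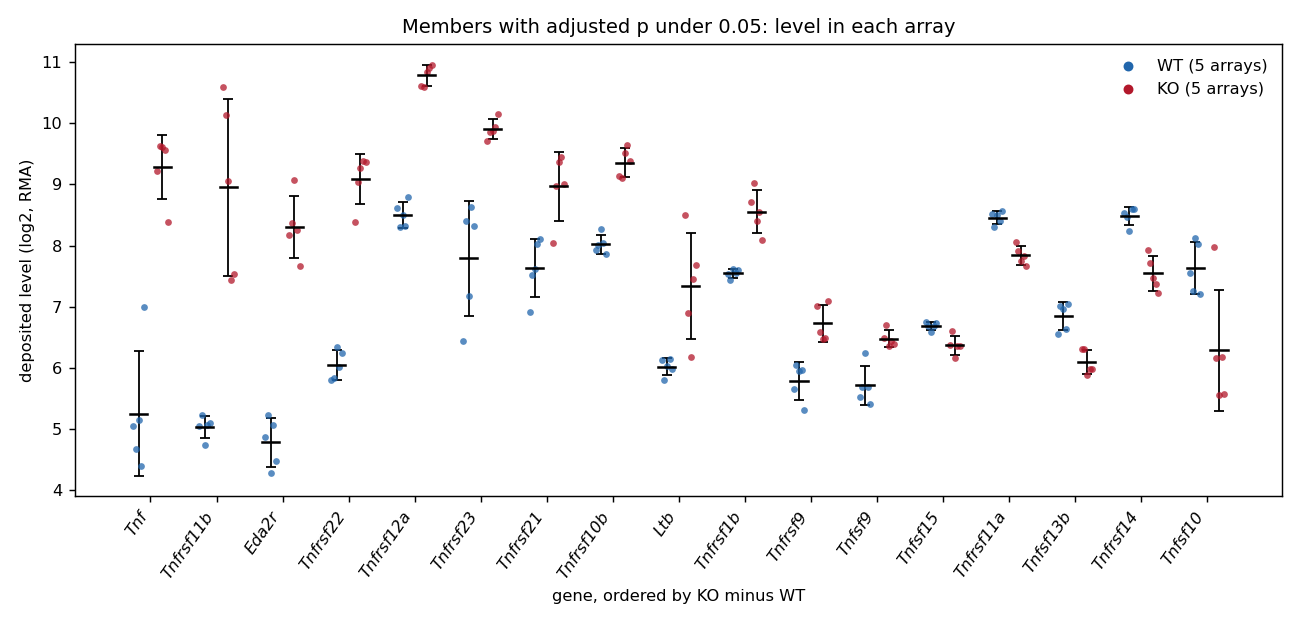
Deposited log2 level of the 17 genes that passed, 1 point per array (blue WT, red KO), with the mean and SD of each group in black, ordered from the largest rise to the largest fall. Groups overlap for Tnfrsf21, Tnfsf15 and Tnfsf10, and the wide KO spread of Tnfrsf11b separates replicates 1 and 2 above 10 from replicates 4 and 5 below 8.

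Among the 5 receptors with a death domain, Tnfrsf10b and Tnfrsf21 rose and the rest did not pass. Tnfrsf10b, the mouse receptor through which TRAIL kills, stood at 9.13, 9.10, 9.51, 9.64 and 9.39 in KO and at 7.93, 8.01, 8.27, 8.05 and 7.87 in WT. The groups were well apart, with a change of 1.33 ± 0.13 (SE) or 2.51-fold (limma, adjusted p = 1.27e-05). Tnfrsf21, the death receptor DR6, stood at 8.04, 8.97, 9.37, 9.45 and 9.01 in KO and at 6.92, 7.51, 7.61, 8.03 and 8.11 in WT. KO replicate 1 lay below WT replicate 5, so the groups touched, and the change was 1.33 ± 0.29 (SE) (limma, adjusted p = 0.00435).

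Tnfrsf1a, the main receptor of TNF on epithelium, was at 9.74, 9.41, 9.86, 10.55 and 10.36 in KO and at 9.10, 9.60, 9.08, 10.00 and 9.64 in WT. The groups overlapped and the change of 0.50 did not pass (limma, adjusted p = 0.156; 95% interval -0.02 to 1.03). Fas, the receptor of Fasl, ranged from 5.74 to 6.67 in KO and from 5.75 to 7.06 in WT, a change of -0.31 (95% interval -0.90 to 0.27). Tnfrsf25 changed by 0.12 (95% interval -0.15 to 0.39). The ligand Tnf therefore changed by 4.03 beside 0.50 for Tnfrsf1a and 1.01 for its other receptor, Tnfrsf1b.

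Decoy receptors held some of the largest rises. Tnfrsf11b, or osteoprotegerin, a secreted decoy that binds the ligands Tnfsf11 and Tnfsf10, was at 10.59, 10.13, 9.05, 7.44 and 7.54 in KO and at 5.05, 5.22, 4.74, 5.07 and 5.10 in WT. All KO arrays lay over 2 units above the WT arrays, but they spread widely, KO replicates 1 and 2 being highest and 4 and 5 lowest. The change was 3.91 ± 0.55 (SE) or 15.1-fold (limma, adjusted p = 0.000218, 95% interval 2.71 to 5.12). The WT mean, 5.04 ± 0.18 (SD, n = 5), lies under the highest negative control median of 5.10, so WT signal may be background and the change understated.

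Tnfrsf22 and Tnfrsf23 are mouse decoys of TRAIL that lie side by side on chromosome 7, with Tnfrsf26, a related receptor, next to Tnfrsf22. Tnfrsf22 stood at 8.39, 9.04, 9.27, 9.39 and 9.36 in KO and at 5.80, 5.84, 6.34, 6.02 and 6.25 in WT. Its change was 3.04 ± 0.20 (SE) or 8.22-fold (limma, adjusted p = 3.29e-07). Tnfrsf23 stood at 9.70, 9.86, 9.88, 9.95 and 10.14 in KO and at 6.43, 8.40, 7.17, 8.63 and 8.32 in WT. It spread far more in WT, with an SD of 0.94 against 0.16 in KO, and changed by 2.12 ± 0.37 (SE) (limma, adjusted p = 0.00104). Neither gene's groups overlapped. Tnfrsf26 ranged from 5.30 to 5.76 in KO and from 4.93 to 5.41 in WT, and its change of 0.29 did not pass (limma, adjusted p = 0.148). Tnfrsf22 and Tnfrsf23 are similar genes and the probes' sequences were not used here, so signal shared between them cannot be told apart.

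Set by ligand, the TRAIL group moved in both directions. Tnfsf10 itself fell, a call lost under 8 of 20 alternatives, and its death receptor Tnfrsf10b rose by 1.33. The receptors that bind it without a death domain, Tnfrsf22, Tnfrsf23 and Tnfrsf11b, rose by 3.04, 2.12 and 3.91. Signal shared between Tnfrsf22 and Tnfrsf23 cannot be told apart. In the Tnfsf11 group the ligand changed by -0.10, its signalling receptor Tnfrsf11a fell and its decoy Tnfrsf11b rose.

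**Figure D3:**
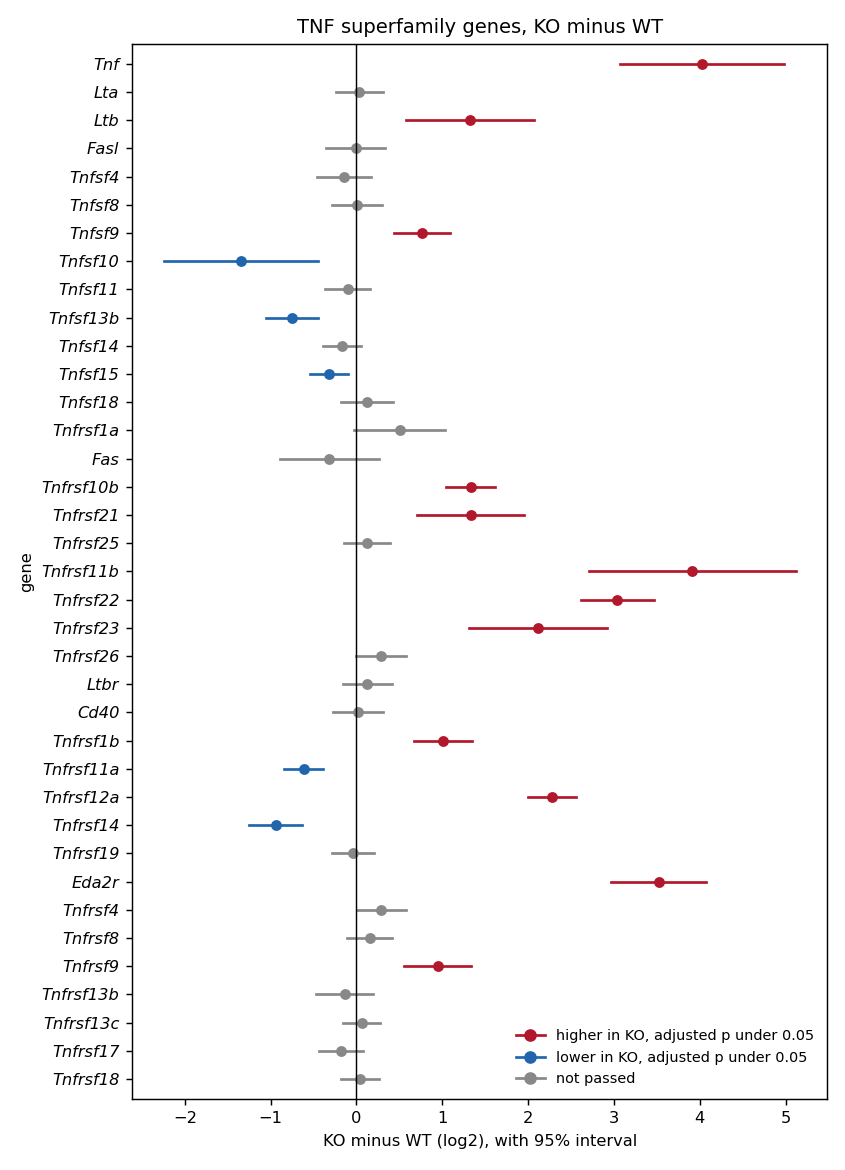
Change of each of the 37 genes, KO minus WT on the log2 scale, with its 95% interval from limma, in order of role from ligands at the top to receptors known from lymphocytes at the bottom. Tnf, Tnfrsf11b and Eda2r have the largest rises (4.03, 3.91 and 3.52), and most genes that did not pass have intervals within 0.6 of 0.

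Of 8 other receptors that act in epithelium and other tissues, 3 rose, 2 fell and 3 did not pass. Eda2r, a receptor of ectodysplasin and a known p53 target, was at 8.17, 8.37, 9.07, 8.25 and 7.67 in KO and at 4.88, 5.23, 4.28, 5.06 and 4.47 in WT. The lowest KO array lay more than 2 units above the highest WT array. The change was 3.52 ± 0.25 (SE) or 11.5-fold (limma, adjusted p = 8.59e-07, 95% interval 2.97 to 4.08). It may be understated, because the WT mean of 4.78 lies under the highest negative control median. Eda2r lies on the X chromosome, the only member that does, and the KO arrays are those with lower Y-linked signal. The part of this in its change was not tested and cannot be told apart from that of the knockout. Its ligand gene Eda changed by 0.07 and did not pass (limma, adjusted p = 0.725).

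Tnfrsf12a, known as Fn14, is induced in wounded and growing epithelium. It stood at 10.61, 10.60, 10.84, 10.90 and 10.96 in KO and at 8.62, 8.30, 8.50, 8.31 and 8.80 in WT. Replicates agreed closely within each group, and the change of 2.28 ± 0.13 (SE) or 4.84-fold, had the smallest p of the family (limma, adjusted p = 9.95e-08). Tnfrsf1b, the TNF receptor that recruits TRAF2 directly and has no death domain, was at 8.72, 9.02, 8.41, 8.54 and 8.08 in KO and at 7.53, 7.44, 7.62, 7.55 and 7.60 in WT. Its groups did not overlap, and the change was 1.01 ± 0.15 (SE) (limma, adjusted p = 0.000414).

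Tnfrsf14 and Tnfrsf11a were the receptors that fell. Tnfrsf14, or HVEM, which receives signals from lymphocytes at the mucosa, was at 7.93, 7.71, 7.47, 7.38 and 7.23 in KO and at 8.53, 8.46, 8.24, 8.59 and 8.59 in WT. All KO arrays lay below all WT arrays, and the change was -0.94 ± 0.14 (SE) (limma, adjusted p = 0.000352). Tnfrsf11a, or RANK, through which Tnfsf11 induces M cells, was at 8.06, 7.91, 7.75, 7.83 and 7.66 in KO and at 8.52, 8.30, 8.49, 8.40 and 8.57 in WT. Here too the groups were apart, and the change was -0.61 ± 0.10 (SE) (limma, adjusted p = 0.000867).

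Ltbr, the receptor of lymphotoxin, was at 10.30 to 10.70 in KO and 10.18 to 10.70 in WT, a change of 0.13 (95% interval -0.16 to 0.41). Cd40, a receptor of antigen-presenting cells that is also found on epithelium, changed by 0.02 (95% interval -0.27 to 0.30). Tnfrsf19, or TROY, a Wnt target and marker of intestinal stem cells, ranged from 6.22 to 6.59 in KO and from 6.25 to 6.63 in WT and changed by -0.04 (95% interval -0.29 to 0.21). These 3 receptors did not pass.

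Of the 7 receptors known mainly from lymphocytes, only Tnfrsf9 passed. It stood at 7.02, 6.59, 6.47, 6.49 and 7.10 in KO and at 5.65, 6.06, 5.95, 5.96 and 5.31 in WT. The groups did not overlap, and the change was 0.95 ± 0.18 (SE) (limma, adjusted p = 0.00186). Its ligand Tnfsf9 rose by 0.77. The other 6 changed by -0.18 to 0.29: Tnfrsf17 (-0.18), Tnfrsf13b (-0.14) and Tnfrsf13c (0.06), the receptors for BAFF and its relative, Tnfrsf18 (0.04), Tnfrsf8 (0.15) and Tnfrsf4 (0.29). Tnfrsf4 was nearest to passing (limma, adjusted p = 0.125).

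A list of 7 superfamily genes and partners whose names do not follow the rule was read in the same way. Edaradd, the adaptor of the ectodysplasin receptor Edar, fell by 0.79 (limma, adjusted p = 0.0120), but not when tested against a 1.2-fold change (limma's treat, adjusted p = 0.0705). Cd40lg (-0.12), Cd70 (-0.04), Eda, Edar (-0.24), Ngfr (-0.12) and Relt (0.00) did not pass.

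Downstream of the receptors, 33 of 36 listed signalling intermediates were measured, and 10 rose, 1 fell and 22 did not pass. That is 30.3% higher and 3.03% lower, beside the 15.0% and 11.7% of all probe sets, with a median change of 0.28. The largest rise was that of Tnfaip3, the ubiquitin-editing enzyme that shuts off TNF receptor signalling to NF-kB. It stood at 10.84, 11.17, 10.95, 10.70 and 10.62 in KO and at 7.14, 7.58, 7.66, 7.75 and 8.40 in WT. The groups were more than 2 units apart, and the change was 3.15 ± 0.20 (SE) or 8.88-fold (limma, adjusted p = 3.55e-07). Tnip1, a partner of Tnfaip3, rose by 0.87 (limma, adjusted p = 0.000335).

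Of genes that act against the death branch, some passed and some did not. Cflar, which blocks caspase-8 at death receptors, stood at 9.17, 8.77, 8.97, 9.29 and 9.15 in KO and at 7.63, 8.16, 7.73, 8.09 and 7.83 in WT, without overlap. Its change was 1.18 ± 0.14 (SE) (limma, adjusted p = 5.21e-05). Birc3, a ubiquitin ligase that keeps TNF receptor complexes from killing, rose by 0.84 (limma, adjusted p = 0.00363). Birc2 (0.16) and Xiap (-0.10), related inhibitors named after their values were seen, did not pass. Casp8 itself averaged 11.43 ± 0.20 (SD, n = 5) over KO arrays and 11.10 ± 0.17 (SD, n = 5) over WT arrays, and changed by 0.33 and did not pass (limma, adjusted p = 0.0799); with arrays weighted by quality it did (limma, adjusted p = 0.0246).

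Among adaptors, kinases and a protease, Map3k14, the kinase NIK of the alternative NF-kB branch, rose by 0.79 (limma, adjusted p = 0.00165), Map3k5, a stress kinase, by 0.86 (limma, adjusted p = 0.00240), Adam17, the protease that sheds TNF, by 0.63 (limma, adjusted p = 0.00210) and Traf2 by 0.48 (limma, adjusted p = 0.0154). Traf2 did not pass against a 1.2-fold change (limma's treat, adjusted p = 0.260). The adaptors Tradd (-0.22) and Traf1 (0.36) did not pass. The intermediate that fell, named after its value was seen, was Spata2 (-0.53), which brings the deubiquitinase Cyld to receptor complexes. Left without WT replicate 5 it no longer passed (limma, adjusted p = 0.0515) nor did it against a 1.2-fold change (limma's treat, adjusted p = 0.223).

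Of the NF-kB subunits on which these receptors act, Nfkb2 rose by 1.39 (limma, adjusted p = 6.01e-06), Rela by 1.15 (limma, adjusted p = 4.32e-05) and Relb by 0.53 (limma, adjusted p = 0.00609), and Rel changed by 0.26 and did not pass (limma, adjusted p = 0.127). Relb did not pass against a 1.2-fold change (limma's treat, adjusted p = 0.125). Traf3, Ripk1, Chuk and Nfkb1 were on the lists but not among the named probe sets and were not analysed here.

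**Figure D4:**
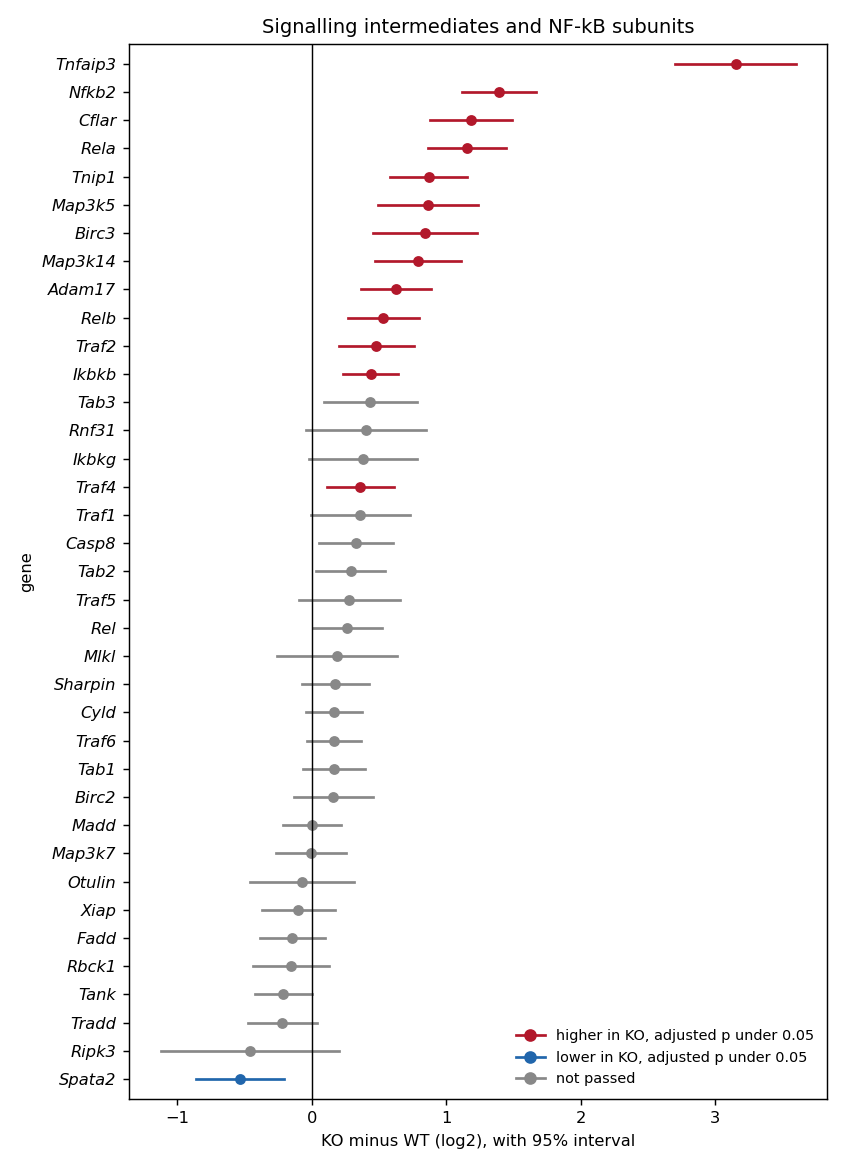
Change of 33 signalling intermediates and 4 NF-kB subunits, KO minus WT on the log2 scale, with 95% intervals from limma, ordered by size; red rose, blue fell and grey did not pass. Tnfaip3 stands apart at 3.15, followed by Nfkb2 at 1.39, Cflar at 1.18 and Rela at 1.15.

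Within the groups the members did not rank the arrays alike. Among the 17 genes that passed, KO replicate 1 was the highest KO array for 5 (Ltb, Tnfsf10, Tnfrsf11b, Tnfrsf11a and Tnfrsf14) and the lowest for 3 (Tnfrsf21, Tnfrsf22 and Tnfrsf23). KO replicate 3 was lowest for 6 and highest for 1. KO replicate 5 was lowest for 5, Tnf and Tnfrsf1b among them, and highest for 3. In WT, replicate 5 was highest for 5, Tnf and Tnfrsf12a among them, and lowest for 4. No array was highest or lowest throughout.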

How the data were processed

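Levels were measured on 10 arrays, 5 KO and 5 WT, 1 per sample, from 100 ng of total RNA each per the labels' protocols. For each probe set and array the authors deposited a log2 level from RMA as the submitters' processing notes say (limma is the other tool named there); versions, genome build and whether arrays were normalized together were not found in these sources. The deposited log2 levels were used unchanged. Of 28846 probe sets 6640 were controls, 19572 had 1 gene symbol, 0 had several and 2634 were unnamed here. Precision rests on the number of arrays: over probe sets the SD had a median of 0.20 in KO and 0.21 in WT.

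A linear model (limma 3.58.1, R 4.3.3; lmFit, eBayes) was fitted on all 28846 probe sets and p-values adjusted by Benjamini-Hochberg over the 19572. 95% intervals are unadjusted. The members and all gene lists were chosen with earlier results of these data known. All members could be named, with array values for those that passed; of the intermediates, the 6 with the smallest p and a fixed few were named. Alternatives changed normalization, filter, variance model, array weights, adjustment, controls, probe set averaging, size tested against, pairing, and arrays left out. Promoters were searched with Python 3.11.15 and pandas 2.3.3 and figures drawn with matplotlib 3.10.9. The fit was tested on simulated data, in which it recovered 22% of changes of 0.5, 74% of 1, 96% of 2 and 100% of 4. Only 50 probe sets of each size were changed there, far fewer than the 5224 called in the data. These shares thus do not carry over directly, but small changes can be missed.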

Additional observations from a re-analysis of the deposited data

Results flagged for a closer look

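In 136 groups of 5 arrays, 11 held an array whose gap to the nearest other was over 0.71 of the group's range; chance flags about 1 in 20 groups. Among members, Tnfsf10 was at 7.98 in KO replicate 1 against 5.57 to 6.17 in the other KO arrays, and Tnfrsf18 at 6.62 in KO replicate 2 against 6.45 to 6.48. Among intermediates, Traf1 was at 5.93 in KO replicate 2 against 5.10 to 5.27, and Map3k14 at 7.40 in WT replicate 4 against 7.55 to 7.59. Edaradd was at 7.55 in WT replicate 4 against 6.38 to 6.65, and Edar at 6.64 in KO replicate 1 against 6.26 to 6.34. Relt was low in both groups, at 5.34 in KO replicate 4 against 5.91 to 6.05 and at 5.49 in WT replicate 1 against 5.87 to 6.01. Itgam was at 8.37 in KO replicate 1 against 6.14 to 6.64. That array was the highest KO array for 5 of the 17 members that passed, Tnfsf10 and Ltb among them, and the lowest for 3. Csf1r, the other leukocyte marker that rose, was highest in KO replicate 5, at 7.59 beside 7.13 in KO replicate 1. Nfkbia was at 9.85 in WT replicate 5 against 8.95 to 9.19, and Kdm5d at 4.92 in WT replicate 4 against 6.26 to 6.66.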

How the results depend on the processing

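Under 20 alternatives, 10 of which left out an array, the count of 12 superfamily genes higher in KO did not change. Of the 17 members that passed, 15 passed under each of the 20, and Tnfsf10 and Tnfsf15 did not. The count of 5 lower was 3 against a 1.2-fold change (limma's treat), 4 with the replicate block, and 3 to 4 with an array left out, 3 when it was one of the KO arrays 3, 4 and 5 or of the WT arrays 1 and 4. None of the 20 members that did not pass did so under an alternative, and for 6 of them, all with changes near 0, the sign differed under some. The count of intermediates higher was 10, with 7 against a 1.2-fold change, 13 with array weights, 10 with the replicate block and 9 to 12 with an array left out. The count lower was 1, with 0 by limma's treat (1.2-fold; 1 at an unadjusted p under 0.05), 0 without WT replicate 5 (limma; 1 at an unadjusted p under 0.05) and 1 without each other array. The replicate block changed no other call named here than that of Tnfsf15. Numbers were not taken as pairs because the labels do not say that they pair samples. Deviations of same-numbered KO and WT arrays correlated at r from -0.07 to 0.36, and 4 of 10 arrays correlated best with their own number. With 5 arrays a group this cannot decide whether the numbers pair samples. Over all probe sets 5224 were called, and 3034 against a 1.2-fold change. Precision is limited by 10 arrays, and genes near the negative controls have only a bound on their level.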

Other observations

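WT replicate 5, in which Nfkbia was highest of all arrays (9.85), was also the highest WT array for some other genes of the report. Among them were Tnf (6.99 against 4.40 to 5.16 in the other WT arrays), Tnfaip3 (8.40 against 7.14 to 7.75), Nfkb2 (7.57 against 6.97 to 7.15) and Tnip1 (9.29 against 8.70 to 9.22). These genes were picked after their values were seen, and other genes ranked the arrays otherwise, as Tnfsf9 and Tnfrsf9 were lowest in WT replicate 5. The values are given as they stand.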
